A study of Mus musculus with 32 samples.

Results

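Cmbl, Deptor, Apobec3, Serhl and Cyb5r3 are 5 protein-coding genes of mouse chromosome 15, the chromosome that carries Ppara. They were chosen because earlier comparisons of these libraries had found them changed in mice with the Ppara-null allele on either diet, and because of their chromosome. They are 5 of the 54418 rows of the count table, 5 of the 5872 genes with enough counts to be tested and 5 of the 218 tested genes on chromosome 15. They were thus chosen by their counts in Ppara-null libraries against WT, and the calls and p-values of that difference given below describe the choice and lend it no support. Cyb5r3, Cmbl and Deptor had higher RNA levels with the null allele, and Apobec3 and Serhl had lower levels.

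The RNA came from flow-sorted intestinal stem cells of mice, gated on high green fluorescence after staining for the epithelial surface protein CD326 and with the dye DAPI. Libraries were made from polyadenylated RNA by a 3′ digital gene expression method, in which reads come from the 3′ ends of transcripts. The 32 libraries form 8 groups of 4. The genotypes are WT, PparD with the floxed Ppard-fl/fl allele, PparA with the Ppara-null allele, and PparDA with both; each was fed a control or a high-fat diet, and the strain label is C57BL6 in every group. The 16 PparA and PparDA libraries are called Ppara-null below, and the 16 WT and PparD libraries the others. No label names the driver that recombines the floxed Ppard allele, the age of the mice, the time on the diet, the strain in which the null allele was made or its backcrosses. Nor does any label state that the 4 libraries of a group are different animals. A p given here thus reflects only how much these samples vary, and part of that may be technical.

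Libraries held 612672 to 724155 counts. The files number them from 1 to 32, and each consecutive set of 8 numbers, called a run here, holds every group once; no label says what the sets stand for. In runs 1 and 3 the female-specific Xist ranged from 479 to 956 counts per 1000000 (CPM), and the Y-linked Ddx3y had no counts. In runs 2 and 4 the range of Ddx3y was 14.6 to 39.9 CPM, while Xist never exceeded 9.98 CPM. By these genes each group mixes female and male libraries, and differences between them are part of the spread within groups. The 9 stem cell markers summed to 8438 to 14651 CPM and each had counts in every library. Most of the sum was Olfm4 (median 10723 CPM), while Lgr5 ranged from 28.8 to 66.0 CPM. The 7 leukocyte markers summed to no more than 9.98 CPM and 5 red blood cell markers to no more than 10.2 CPM. Hba-a1 and Alas2 were at 0. Enterocyte markers moved with the allele: 6 of 7 were higher in the Ppara-null libraries (sum 785 to 4925 CPM, median 1875) than in the others (848 to 3005 CPM, median 1088), and so were 4 of 5 goblet cell markers (sum 631 to 2475 against 399 to 1723 CPM), where 4.39% of all tested genes were called higher. Of 6 Paneth cell markers 1 was called higher, and their sum was 2452 to 33335 CPM (median 10296) against 1679 to 35663 CPM (median 5256). The part of these markers in the results below was not tested, and in bulk RNA fewer cells of a type and less RNA per cell cannot be told apart. Ppara RNA did not exceed 7.28 CPM in any library, and on the control diet its mean was 2.14 ± 1.79 CPM for WT, 0.798 ± 0.922 CPM for PparA and 4.01 ± 2.86 CPM for PparDA (SD, n = 4), the last a Ppara-null group above WT. It was too low to be tested, so the genotype labels could not be checked from it. PparA high-fat library 6 stood apart from the other 15 Ppara-null libraries at some of the genes, as described below.

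PPARα, the product of Ppara, is a nuclear receptor that fatty acids activate and that turns on genes of fatty acid oxidation. The proteins of the 5 genes work in different processes. Cyb5r3 is a reductase that passes electrons from NADH to cytochrome b5, which supplies fatty acid desaturases and sterol-synthesizing enzymes. Deptor binds the kinase mTOR, a regulator of growth, and inhibits it. Apobec3 is a cytidine deaminase that restricts retroviruses. Cmbl is a cysteine hydrolase known in human intestine and liver for activating an ester prodrug. Serhl is named for its likeness to serine hydrolases.

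All coordinates are those of the mouse build mm10. Along chromosome 15 the genes start at increasing distance before Ppara (plus strand, 85734983 to 85802819). Cyb5r3 (ENSMUSG00000018042, minus strand, 83153494 to 83172592) and Serhl (ENSMUSG00000058586, plus strand, 83089506 to 83116674) have starts 2.6 Mb before that of Ppara. They lie close together but are not adjacent: another tested gene, which was not called, starts between them. Apobec3 (ENSMUSG00000009585, plus strand, 79891659 to 79915906) starts 5.8 Mb before it. Deptor (ENSMUSG00000022419, plus strand, 55112317 to 55259271) starts 30.6 Mb before it and Cmbl (ENSMUSG00000022235, plus strand, 31565389 to 31590119) 54.2 Mb before it.

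Cyb5r3 separated all Ppara-null libraries from all others. It stood at 83.9, 65.9, 103 and 77.8 CPM in WT control libraries 1, 9, 17 and 26, at 82.4, 80.4, 77.0 and 85.9 CPM in WT high-fat libraries 2, 10, 18 and 25, at 99.8, 77.3, 65.1 and 84.6 CPM in PparD control libraries 3, 11, 19 and 27, and at 81.5, 68.6, 91.4 and 64.6 CPM in PparD high-fat libraries 4, 12, 20 and 28. It stood at 303, 302, 295 and 261 CPM in PparA control libraries 5, 13, 21 and 29, at 245, 276, 305 and 344 CPM in PparA high-fat libraries 6, 14, 22 and 30, at 308, 328, 302 and 311 CPM in PparDA control libraries 7, 15, 23 and 31, and at 301, 231, 302 and 365 CPM in PparDA high-fat libraries 8, 16, 24 and 32. The lowest Ppara-null library, at 231 CPM, was above the highest of the others, at 103 CPM. The mean was 299 ± 33.8 CPM against 80.5 ± 11.3 CPM (SD, n = 16 each), 3.71 times as high, with coefficients of variation of 11.3 and 14.04%. Over the 5872 tested genes, 3 had ranges that did not overlap between the 16 Ppara-null and the 16 other libraries (0.0511%): Cyb5r3, Apobec3 and the pseudogene Rpl3-ps1.

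Apobec3 was the reverse: it was low in every Ppara-null library. WT control libraries, in the order above, had 133, 133, 135 and 136 CPM, WT high-fat libraries 177, 108, 164 and 133 CPM, PparD control libraries 143, 269, 112 and 122 CPM, and PparD high-fat libraries 117, 121, 102 and 138 CPM. PparA control libraries had 41.97, 23.8, 53.0 and 39.6 CPM, PparA high-fat libraries 50.8, 31.6, 37.9 and 18.3 CPM, PparDA control libraries 38.7, 27.1, 32.9 and 28.7 CPM, and PparDA high-fat libraries 31.3, 46.5, 22.3 and 44.0 CPM. The highest Ppara-null library (53.0 CPM) lay below the lowest of the others (102 CPM), and the mean of the others was 3.94 times that of the Ppara-null libraries (140 ± 39.4 against 35.5 ± 10.2 CPM). PparD control library 11, at 269 CPM, was the highest of all.

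Serhl was lower with the null allele, with ranges that touched. WT control libraries had 85.3, 59.9, 94.8 and 41.1 CPM, WT high-fat libraries 54.5, 50.1, 81.3 and 59.7 CPM, PparD control libraries 70.03, 62.4, 56.0 and 71.7 CPM, and PparD high-fat libraries 57.8, 80.5, 36.3 and 69.0 CPM. PparA control libraries had 18.7, 31.7, 36.9 and 21.97 CPM, PparA high-fat libraries 19.4, 33.3, 18.1 and 31.6 CPM, PparDA control libraries 27.9, 21.1, 26.6 and 35.5 CPM, and PparDA high-fat libraries 31.3, 25.7, 28.6 and 31.5 CPM. PparA control library 21 (36.9 CPM) was just above PparD high-fat library 20 (36.3 CPM), and all other Ppara-null libraries were below all others. The mean was 27.5 ± 6.10 CPM against 64.4 ± 15.9 CPM. Serhl shares 678 exon bases with Rrp7a on the opposite strand, and whether the counting used strand is not given in the sources used here, so reads of the 2 genes may not be told apart. The row of Rrp7a had 22.9 CPM in Ppara-null and 24.8 CPM in the other libraries, a log2 difference of -0.12 ± 0.11 (SE, edgeR adjusted p = 0.70).

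Cmbl was higher in 15 of the 16 Ppara-null libraries than in any other library. WT control libraries had 39.9, 19.5, 37.3 and 32.3 CPM, WT high-fat libraries 28.0, 45.5, 34.9 and 32.04 CPM, PparD control libraries 32.8, 49.0, 28.8 and 24.4 CPM, and PparD high-fat libraries 32.6, 46.2, 37.7 and 49.9 CPM. PparA control libraries had 138, 114, 69.0 and 120.1 CPM, PparA high-fat libraries 32.8, 94.8, 130.3 and 89.8 CPM, PparDA control libraries 139, 116, 133 and 166 CPM, and PparDA high-fat libraries 100.3, 116, 143 and 129 CPM. The exception was PparA high-fat library 6, whose 32.8 CPM (22 counts) lay near the median of the others, 33.8 CPM. PparA control library 21, at 69.0 CPM, was the next lowest. The mean was 114 ± 32.04 CPM against 35.7 ± 8.77 CPM.

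Deptor was the most variable of the 5 within the Ppara-null libraries, with a coefficient of variation of 39.6% against 22.7% in the others. WT control libraries had 61.9, 41.9, 84.0 and 54.3 CPM, WT high-fat libraries 33.8, 51.6, 40.7 and 48.1 CPM, PparD control libraries 52.1, 43.1, 42.4 and 57.3 CPM, and PparD high-fat libraries 43.0, 56.7, 52.2 and 48.4 CPM. PparA control libraries had 99.5, 92.0, 65.8 and 58.6 CPM, PparA high-fat libraries 97.0, 206, 150.1 and 224 CPM, PparDA control libraries 153, 107, 157 and 157 CPM, and PparDA high-fat libraries 85.5, 73.8, 138 and 101 CPM. PparA control libraries 21 and 29 and PparDA high-fat library 16 lay inside the range of the others, whose highest was WT control library 17. The mean was 123 ± 48.7 CPM against 50.7 ± 11.5 CPM.

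**Figure D1:**
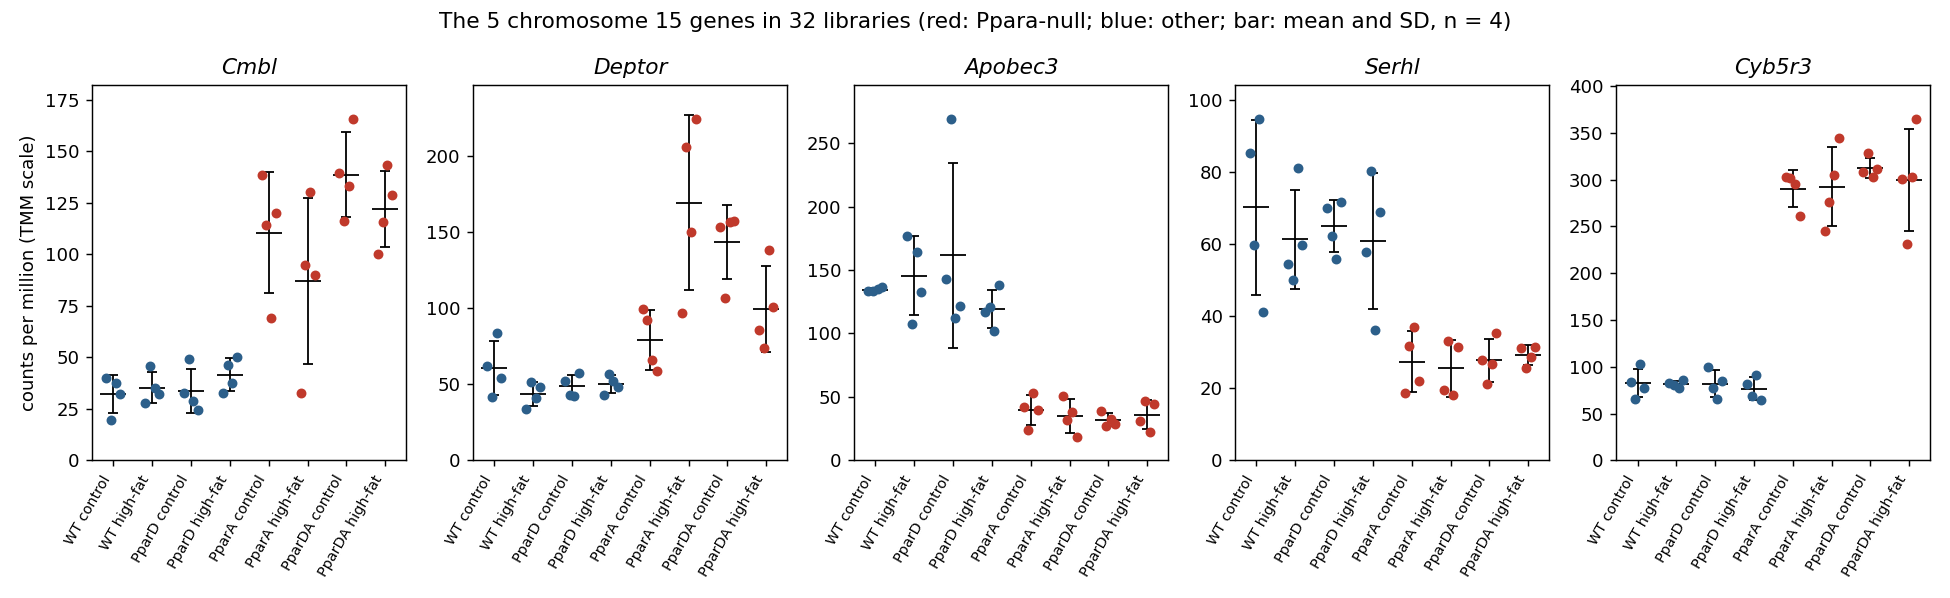
RNA levels of the 5 genes in each library, in CPM on a linear axis, by genotype and diet; points are libraries (red: Ppara-null, blue: other), and bars give the mean and SD of 4 libraries. For Cyb5r3 the red points start at 231 CPM and the blue ones end at 103 CPM, for Apobec3 the order is reversed, and for Cmbl a single red point of the PparA high-fat group (32.8 CPM) lies among the blue ones.

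On the log2 scale of the count model, averaged over diets and Ppard genotypes, the Ppara-null libraries differed from the others by 1.89 ± 0.07 (SE) in Cyb5r3, -1.97 ± 0.13 in Apobec3, 1.66 ± 0.14 in Cmbl, 1.22 ± 0.12 in Deptor and -1.23 ± 0.13 in Serhl. A gene was called where its edgeR adjusted p was under 0.05. In this comparison 445 of 5872 genes were called (7.58%), 258 higher (4.39%) and 187 lower (3.18%), and the 5 genes were among them; since the comparison chose them, nothing is read from that. Under limma on the deposited log2 values, which carry no further scaling, 462 genes were called and 42.6% of them were higher, against 58.0% in the main fit.

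The choice itself was met in full by 4 of the 5. Cyb5r3, Apobec3, Cmbl and Serhl were called in the same direction in PparA and in PparDA against WT on each diet, comparisons that share the WT libraries of a diet. On the control diet 0.562% of genes were called in PparA (0.426% higher, 0.136% lower) and 1.87% in PparDA (1.23% higher, 0.647% lower). On the high-fat diet these shares were 0.749% (0.494% higher, 0.255% lower) and 1.57% (0.937% higher, 0.63% lower). Deptor was called in 3 of the 4 and missed PparA on the control diet, where it was 0.38 ± 0.24 above WT (adjusted p = 0.69). So the description of Deptor as changed on both diets in both genotypes did not hold in PparA on the control diet. Against PparD, PparDA gave calls in the same directions for 5 of the 5 on each diet (1.19% of genes called on the control and 1.58% on the high-fat diet), but with the same PparDA libraries that chose the genes, so nothing is read from this. Just inside the threshold lay Serhl in PparDA on the high-fat diet (adjusted p = 0.027). Just outside lay the galectin gene Lgals2 in PparA on the high-fat diet (0.073). Polr2k, a subunit shared by RNA polymerases, missed that comparison at 0.93 and was just inside in PparA on the control diet (0.049). Ywhaz, a 14-3-3 adaptor protein gene of the same chromosome, was called in all 4 but is not among the 5. Its call in PparA on the high-fat diet was also just inside the threshold (adjusted p = 0.041). Over the genome 10 genes were called in all 4 in 1 direction (0.17% of tested genes). On chromosome 15, with 218 of the 5872 tested genes, lie 5 of these, Ywhaz and the 4 chosen genes named above. In at least 3 comparisons 25 genes were called (0.43%), with 8 on chromosome 15, the 5 chosen genes among them. The count in all 4 includes the call of Ywhaz near the threshold, and the count in at least 3 that of Polr2k. Since these comparisons chose the 5 genes, nothing is read from their part in these counts.

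Some of these calls lay near the threshold and were lost when any of several libraries was left out. Cmbl in PparA against WT on the high-fat diet (1.30 ± 0.29, adjusted p = 0.019) was no longer called without library 2, 14, 18, 22, 25 or 30 (1.03 to 1.30, adjusted p = 0.056 to 0.087). Serhl lost its call in PparDA on the high-fat diet without library 8, 16, 18, 24, 25 or 32 (-1.10 to -0.90, adjusted p = 0.056 to 0.14), in PparA on the control diet without library 17 (-1.19, 0.053), and in PparA on the high-fat diet without library 18 (-1.10, 0.081). With fewer libraries more were lost. Runs 1 and 3 hold PparA libraries 6 and 21, the lowest Ppara-null libraries for Cmbl. Within runs 1 and 3 Cmbl was called in none of the 4 comparisons, Deptor lost its call in PparDA on the control diet and Serhl in PparDA on the high-fat diet. Within runs 2 and 4 Serhl was called in none of the 4, and Apobec3 and Deptor lost their calls in PparDA on the high-fat diet. In fits of the 2 groups compared, Cmbl in PparA on the high-fat diet and Serhl in PparA on each diet were not called. Cyb5r3 was called in all of these.

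The comparisons of Ppard genotypes, diets and run pairs that follow were not themselves used to choose the genes, but they use the same libraries. The floxed Ppard allele was not seen to change any of the 5: over all groups, Ppard-fl/fl libraries differed from the rest by -0.07 ± 0.13 in Apobec3, 0.28 ± 0.14 in Cmbl, 0.01 ± 0.07 in Cyb5r3, -0.00 ± 0.12 in Deptor and 0.02 ± 0.13 in Serhl on the log2 scale. None passed (adjusted p = 0.42 for Cmbl, the lowest), against 56 of 5872 genes called (0.954%). The 95% intervals, here and below, are normal approximations from the SE. The interval was narrowest for Cyb5r3, -0.13 to 0.15. For Cmbl it ran from 0.0046 to 0.56, just clear of 0, while the unadjusted p of edgeR's test was 0.056. PparDA against PparA gave no call among the 5 on either diet (0.136% and 0.272% of genes called), and Deptor had the largest differences, 0.86 ± 0.23 on the control (adjusted p = 0.25) and -0.76 ± 0.22 on the high-fat diet (adjusted p = 0.11). Since the genes were chosen for a change in both genotypes, a lack of calls here was favoured by the choice. The same holds in part for the Ppard comparison, which averages PparDA against PparA with PparD against WT. In PparD against WT none of the 5 was called on either diet (0.204% of genes called on the control and 0.017% on the high-fat diet).

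Averaged over genotypes, the high-fat diet did not move the 5 genes past the threshold either. The log2 differences were 0.03 ± 0.12 for Deptor, -0.03 ± 0.14 for Cmbl, -0.04 ± 0.07 for Cyb5r3, -0.08 ± 0.13 for Serhl and -0.08 ± 0.14 for Apobec3 (adjusted p = 0.94 to 0.98), with 19 genes called (0.324%). The genes were chosen for a change on both diets and with both Ppard genotypes, so how the Ppara-null difference varied between diets (3 genes called, 0.0511%) and Ppard genotypes (5 genes called, 0.0851%) is given as a description. None of the 5 was called in either. The largest such difference was that of Deptor between diets, 0.50 ± 0.24 (adjusted p = 0.77). For Cyb5r3 the effect on the high-fat diet minus that on the control diet was 0.03, with a 95% interval of -0.25 to 0.31. Runs 1 and 3 against runs 2 and 4, which differ in Xist and Ddx3y, gave no call among the 5 (2.61% of genes called), with differences from -0.11 ± 0.14 for Cmbl to 0.06 ± 0.07 for Cyb5r3.

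Deptor was the exception within single genotypes. In PparA it was higher on the high-fat than on the control diet, at 169 ± 57.7 CPM against 79.0 ± 19.8 CPM (SD, n = 4), a log2 difference of 1.098 ± 0.23 (adjusted p = 0.032; 0.136% of genes called). In PparDA the means ran the other way, 99.6 ± 28.1 CPM with high-fat and 144 ± 24.4 CPM with control diet (-0.52 ± 0.22, adjusted p = 0.48). In WT they were 43.5 ± 7.91 and 60.5 ± 17.7 CPM (-0.47 ± 0.25, adjusted p = 0.69) and in PparD 50.1 ± 5.80 and 48.7 ± 7.25 CPM. The diet difference in PparDA minus that in PparA was -1.62 ± 0.32 (adjusted p = 0.021; 0.136% of genes called). That in PparA minus that in WT was 1.57 ± 0.34 (adjusted p = 0.042; 0.153% of genes called). The first of these lost its call without library 7, 8, 14, 16, 21, 23, 29 or 30 (adjusted p = 0.052 to 0.082). The second lost it without library 1, 2, 3, 4, 10, 11, 12, 14, 17, 18, 19, 20, 21, 22, 23, 25, 28, 29 or 30 (0.052 to 0.20), and the diet call in PparA without library 13, 14, 21, 29 or 30 (0.057 to 0.23). The PparA libraries here are also those that chose the genes. Under limma the diet difference in PparA was not called (1.01, adjusted p = 0.092). Within runs 1 and 3 it was 0.58 (adjusted p = 1) and within runs 2 and 4 it was 1.52 (adjusted p = 0.017). The difference between PparA and WT was called within neither run pair and missed the threshold with the low filter, and that between PparDA and PparA was not called within runs 1 and 3. No other of the 5 genes passed in any single genotype (0.102% of genes called in WT, 0.0851% in PparD and 0.0341% in PparDA) or in the differences of PparD and PparDA from WT (0.0511% and 0 of the genes).

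Chromosome 15 held the highest share of called genes of any autosome in the Ppara-null comparison. Of its 218 tested genes 39 were called (17.9%), 20 higher and 19 lower, the 5 genes included. The share was 13.5% on chromosome 14, 11.5% on chromosome 8, 10.4% on chromosome 9 and 7.18% over all chromosomes but 15. The median size of the log2 difference on chromosome 15 was 0.12, as over all tested genes, so most genes of the chromosome differed little. Against WT and PparD with PparDA as the only carriers, 35 of the 218 genes of the chromosome were called. Over the genome 421 of 5872 were (7.17%). With PparA as the only carriers 20 of the 218 were called, and 202 of 5872 over the genome (3.44%).

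**Figure D2:**
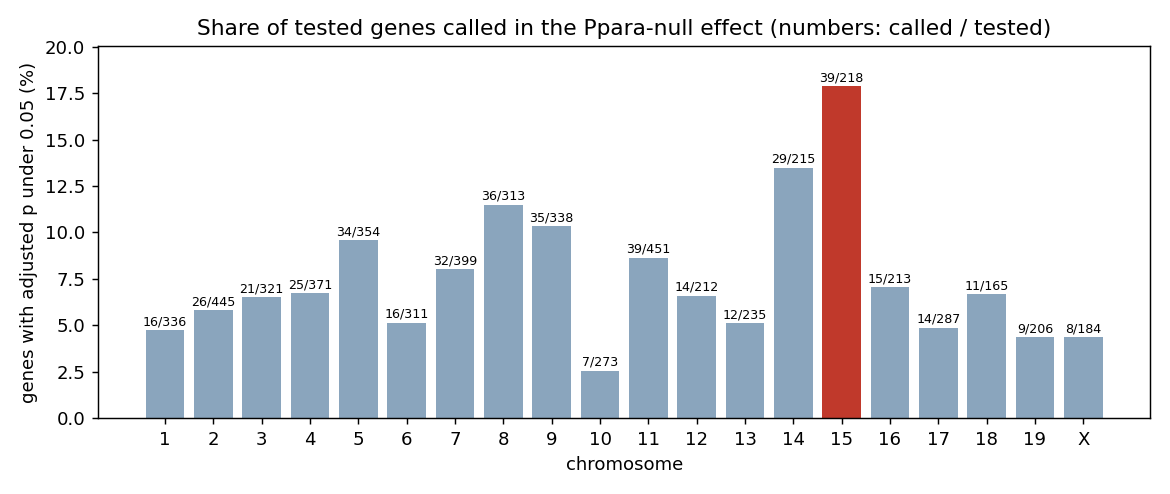
Share of tested genes with an adjusted p under 0.05 in the Ppara-null comparison, in percent, for each autosome and X; the numbers above the bars are called and tested genes. The bar of chromosome 15 (39 of 218, 17.9%) is the tallest, and that of chromosome 14 (29 of 215, 13.5%) is next.

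The called genes of chromosome 15 were spread along it. In windows of 10 Mb, 10 of 29 genes were called from 30 to 40 Mb (34.5%), where Cmbl lies, and 4 of 16 from 50 to 60 Mb, where Deptor lies. From 70 to 80 Mb 8 of 43 were called, Apobec3 among them, and from 80 to 90 Mb, the window of Serhl, Cyb5r3 and Ppara, 7 of 41. None of the 13 genes from 10 to 30 Mb and from 60 to 70 Mb was called. Beyond the window of Ppara 3 of 32 were called from 90 to 100 Mb (9.4%) and 4 of 25 from 100 to 110 Mb (16%). Of 216 windows of the genome with at least 10 tested genes, that at 30 to 40 Mb had rank 3 by share called. The windows of the other chosen genes had rank 9 (50 to 60 Mb), 17 (70 to 80 Mb) and 21 (80 to 90 Mb). Rank 1 was on chromosome 9 (40 to 50 Mb, 13 of 31), in a window that holds the enterocyte genes Apoa1, Apoc3 and Apoa4.

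**Figure D3:**
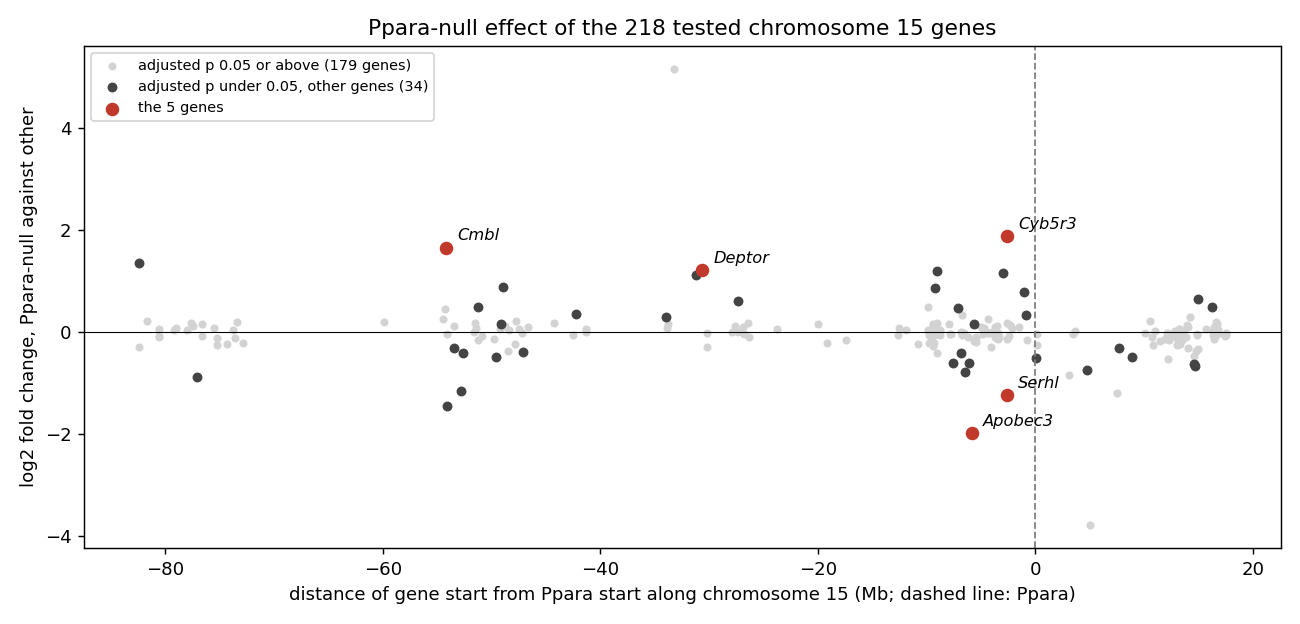
Log2 difference between Ppara-null and other libraries for the 218 tested genes of chromosome 15, against the distance of each gene's start from that of Ppara in Mb; grey points were not called, dark points were called and the 5 genes are red. Cmbl lies 54.2 Mb and Cyb5r3 2.6 Mb before Ppara at differences of 1.66 and 1.89, higher and lower genes occur along the chromosome, and the uncalled points at 5.17 and -3.78 are Gm10020 and Rpl31-ps8.

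Of the 5 tested genes nearest before Ppara and the 4 nearest after it, 3 were called, where 17.9% of the chromosome was. On the proximal side the predicted gene Gm29666 was higher (145 ± 26.3 against 115 ± 23.2 CPM, 0.34 ± 0.09, adjusted p = 0.016). Arhgap8, 1.01 Mb away, was higher in Ppara-null libraries (25.8 ± 8.84 against 14.6 ± 4.09 CPM, 0.79 ± 0.15, adjusted p = 0.00050). Nup50, Samm50 and Tspo were not called (-0.16 ± 0.18, 0.10 ± 0.13 and 0.08 ± 0.12). On the distal side Cdpf1, the nearest of all, was lower (29.5 ± 9.29 against 41.7 ± 7.68 CPM, -0.49 ± 0.14, adjusted p = 0.022), and Gtse1, Trmu and Creld2 were not called (-0.03 ± 0.17, -0.24 ± 0.23 and -0.84 ± 0.31). Further along the chromosome, Fam173b, a gene near Cmbl that encodes a mitochondrial lysine methyltransferase, fell to 9.25 ± 6.84 CPM from 24.7 ± 4.57 CPM (-1.44 ± 0.21). Sdc2, a cell surface heparan sulfate proteoglycan, fell to 17.0 ± 6.86 from 37.8 ± 6.68 CPM (-1.16 ± 0.14), and Ywhaz rose to 259 ± 40.5 from 139 ± 16.04 CPM (0.89 ± 0.07).

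Among the other called genes of chromosome 15, those with the largest differences were Selenop, the plasma selenium carrier (1.35 ± 0.26), Gpt, an alanine aminotransferase (1.20 ± 0.36), Cyp2d26, a cytochrome P450 (1.16 ± 0.34), Mal2, a membrane transport protein gene next to Deptor (1.13 ± 0.25), Slc1a3, a glutamate transporter (-0.88 ± 0.20), and Dgat1, which makes triglycerides (0.87 ± 0.22). Near Apobec3, Tomm22, part of the mitochondrial import receptor, was lower (51.8 ± 11.4 against 78.1 ± 11.95 CPM, -0.60 ± 0.08), and so was Lgals2 (5827 ± 604 against 7749 ± 842 CPM, -0.41 ± 0.05). Several of these calls depended on the libraries used. Within runs 1 and 3 Selenop, Gpt, Mal2, Arhgap8, Cdpf1, Dgat1 (0.23) and Cyp2d26 (-0.048) were not called, and Cdpf1 was also not called within runs 2 and 4. With PparA as the only carriers Slc1a3, Gpt, Cyp2d26, Mal2 and Cdpf1 were not called, and with PparDA as the only carriers Gpt, Cyp2d26 and Dgat1 were not. Gpt and Cyp2d26 were also lost under limma, Gpt without library 8, 10, 12, 13, 14, 19, 23, 24, 25, 26, 28, 29 or 30 and Cyp2d26 without library 13, 14 or 31. Fam173b, Sdc2, Ywhaz, Tomm22 and Lgals2 kept their calls in all alternatives run.

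The Ppara-null libraries did not all carry the same pattern along the chromosome. Each library's level at a gene was placed on a scale where 0 is the mean of the 16 others and 1 the mean of the 8 PparDA libraries, on log2(CPM + 1). The scale, chosen after the values were seen, covers 26 genes called in PparDA with a difference of at least 0.5, and the PparA libraries played no part in setting it. PparA high-fat library 6 had a median of 0.07 over the 8 genes from 30 to 40 Mb, and 7 of these were under 0.5. There it held 32.8 CPM of Cmbl, 23.9 CPM of Fam173b, 32.8 CPM of Sdc2 and 160 CPM of Ywhaz, within the range of WT and PparD. Over the 7 genes from 70 to 90 Mb its median was 0.85, with 245 CPM of Cyb5r3, 50.8 CPM of Apobec3 and 19.4 CPM of Serhl, in the range of the other Ppara-null libraries.

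PparA high-fat library 22 and PparA control library 21 were intermediate from 30 to 40 Mb, with medians of 0.41 and 0.52. The other 5 PparA libraries ranged from 0.77 to 1.44. Libraries 6, 21 and 22 are all of runs 1 and 3, the runs with Xist, and so is library 5, whose median was 0.99. The PparA libraries of runs 2 and 4 were all among those from 0.77 to 1.44. Whether this split goes with run or sex was not tested. From 70 to 90 Mb all 8 PparA libraries had medians of 0.67 to 1.23. Library 22 was not alike at each gene of the first window, with 24.7 CPM of Fam173b, near the mean of the others, and 130.3 CPM of Cmbl, above the mean of the PparDA libraries on the high-fat diet. Near Deptor the PparA libraries differed gene by gene. Mal2 was lowest in libraries 29 and 6 (4.39 and 4.48 CPM) and highest in library 30 (23.3 CPM), and Anxa13, an annexin gene, was lowest in library 21 (20.9 CPM) and highest in library 14 (99.8 CPM). PparA control libraries 21 and 29, lowest of the 8 for Deptor, were also the lowest for Anxa13 (20.9 and 29.3 CPM).

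**Figure D4:**
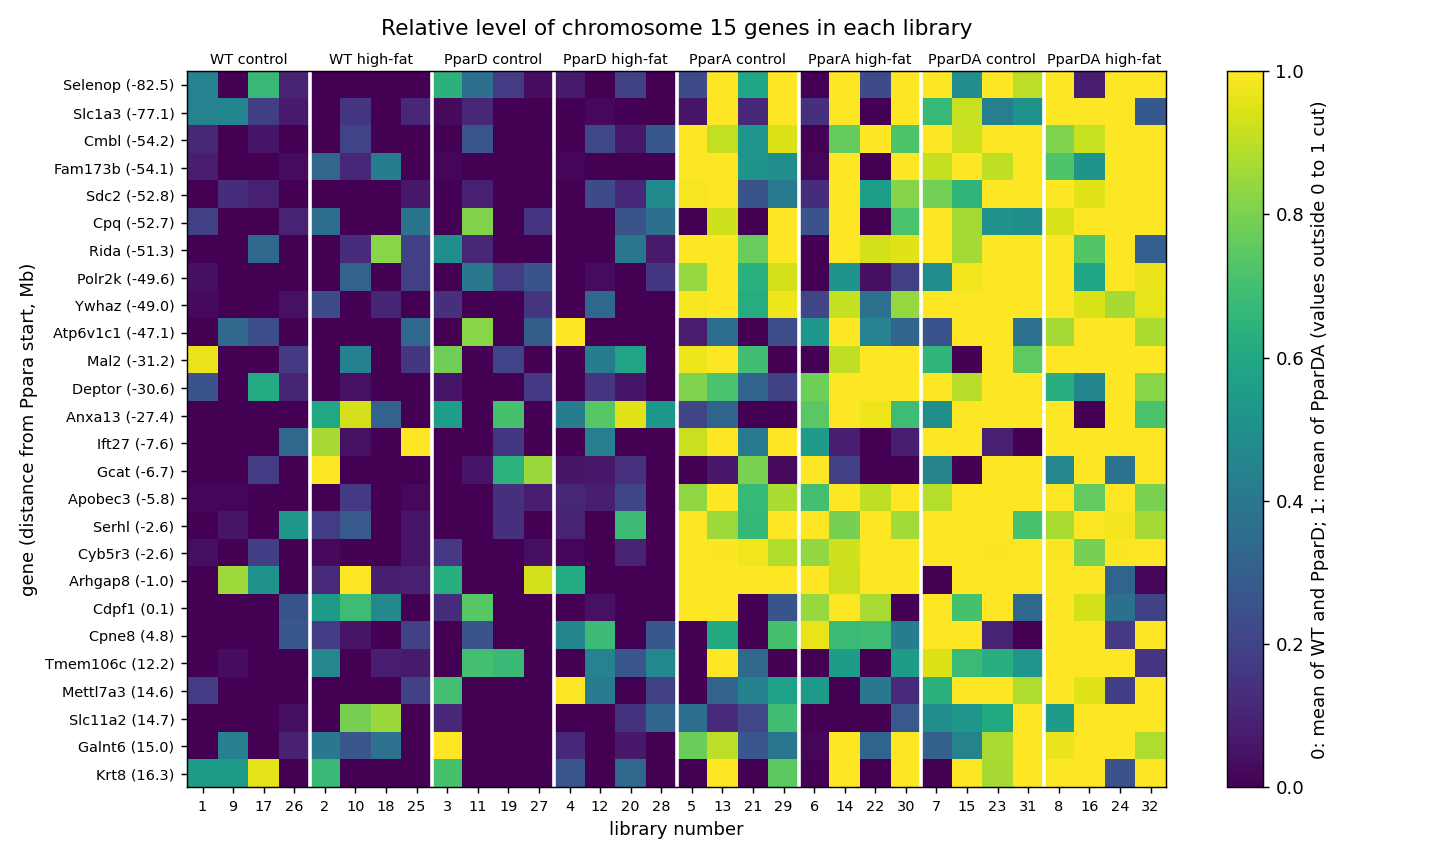
Relative level of 26 chromosome 15 genes (rows, ordered by distance from the start of Ppara in Mb) in the 32 libraries (columns, by group); colour runs from 0, the mean of WT and PparD, to 1, the mean of PparDA, and values beyond are shown at the end colours. Column 6 is dark from Cmbl to Ywhaz (median 0.07 from 30 to 40 Mb) and bright from Apobec3 to Arhgap8 (median 0.85 from 70 to 90 Mb), while the PparDA columns average 1 at each gene by construction.

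Rows of 2 pseudogenes on chromosome X followed the same split between libraries. Rpl3-ps1 (ENSMUSG00000084349, X, 13202571 to 13203780) is a processed copy of the ribosomal protein gene Rpl3, which lies on chromosome 15 at 80077791 to 80091868, next to Apobec3, and Rpl30-ps9 (ENSMUSG00000085791, X, 105278637 to 105278981) is a copy of Rpl30 at 34440505 to 34443640, in the window of Cmbl. Over its transcript Rpl3-ps1 matches Rpl3 at 1208 of 1210 bases (99.8%), and Rpl30-ps9 matches Rpl30 at 343 of 345 (99.4%). The sequences around these differences are shown because, within the stretch they share, parent and copy differ at no other position; the differing base is in capitals, and all are read from the GENCODE M21 transcripts.
Rpl3 first difference: cttcctgcctcgCaagcgcagcagc
Rpl3-ps1 first difference: cttcctgcctcgAaagcgcagcagc
Rpl3 second difference: ccctgcccgtgtTgccttctctgtg
Rpl3-ps1 second difference: ccctgcccgtgtCgccttctctgtg
Rpl30 first difference: gctgggctacaaGcagactctgaag
Rpl30-ps9 first difference: gctgggctacaaAcagactctgaag
Rpl30 second difference: acagactggtgaGaagtaaacaaga
Rpl30-ps9 second difference: acagactggtgaAaagtaa

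Both rows were near 0 without the null allele. Rpl3-ps1 was at 0 in 13 of the 16 other libraries and reached 3 counts at most. In the Ppara-null libraries it ranged from 24.9 to 361 CPM (median 57.4), and library 6 was the highest. This was not particular to library 6. The Ppara-null libraries of run 1 were all above those of the other runs, with 159, 361, 158 and 150 CPM in libraries 5 to 8. In each run the PparA high-fat library was the highest (361, 96.5, 109 and 74.8 CPM). Rpl30-ps9 was at 0 in 12 of the 16 others, with 1 count at most, and at 0 to 168 CPM (median 74.2) in the Ppara-null libraries. Library 6 was the single Ppara-null library with 0, and the next lowest was library 21 at 33.7 CPM. Rpl3 itself stood at 5335 ± 435 against 4770 ± 374 CPM (0.16 ± 0.04, adjusted p = 0.013) and Rpl30 at 718 ± 134 against 790 ± 123 CPM (-0.14 ± 0.07, adjusted p = 0.26). With copies this alike, how the counting split reads between parent and copy is uncertain, and the rows do not show from which locus the RNA came.

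**Figure D5:**
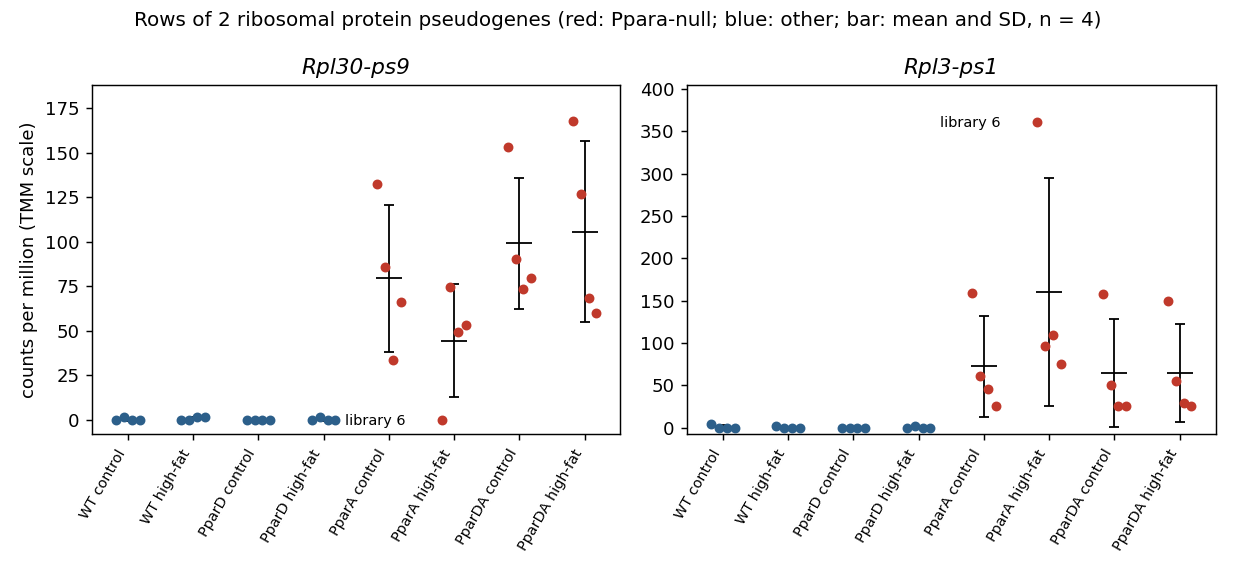
CPM assigned to Rpl30-ps9 (left) and Rpl3-ps1 (right) in each library, by genotype and diet; points are libraries (red: Ppara-null, blue: other), and bars give the mean and SD of 4 libraries. Library 6 of the PparA high-fat group is at 0 for Rpl30-ps9, like the blue points, and at 361 CPM, above all others, for Rpl3-ps1. The other Ppara-null libraries of run 1 are next for Rpl3-ps1, at 150 to 159 CPM.

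Across all 32 libraries, on log2(CPM + 1), Apobec3 and Cyb5r3 were the most alike of the 5, with opposite sign (Pearson r = -0.935). The genes closest to Cyb5r3 were Apobec3 and Rpl3-ps1 (0.925), and those closest to Cmbl were Rpl30-ps9 (0.925) and Ywhaz (0.906). Deptor was closest to Frg1, a gene of chromosome 8 (0.870), and to Apobec3 (-0.857). Apobec3 was closest to Cyb5r3 and Rpl30-ps9 (-0.891), and Serhl to Rpl3-ps1 (-0.843) and Cyb5r3 (-0.840). These values mostly carry the split between the groups: within the 16 Ppara-null libraries r between Apobec3 and Cyb5r3 was -0.458, and within the 16 others -0.013. The strongest pair within the Ppara-null libraries was Deptor with Apobec3 (-0.570), and within the others Deptor with Cyb5r3 (0.481). These are descriptions over libraries that share depth and runs.

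Promoter sequences from RefSeq (GRCm38.p6, 250 bases before to 50 after a transcript start) were at hand for 3 of the 5 genes, Cmbl, Apobec3 and Serhl, and are shown because these genes moved together with an allele of a nuclear receptor gene. They were searched on both strands for AGGTCA, the core motif of many nuclear receptors, for its direct repeat with 1 base between the copies, which PPARα binds with its partner RXR, and for GAAA repeated after 2 free bases, a motif like the interferon response element. Any match to the repeat also counts as a match to AGGTCA. Matches are in capitals.
Cmbl, chr15:31568583-31568882, plus strand: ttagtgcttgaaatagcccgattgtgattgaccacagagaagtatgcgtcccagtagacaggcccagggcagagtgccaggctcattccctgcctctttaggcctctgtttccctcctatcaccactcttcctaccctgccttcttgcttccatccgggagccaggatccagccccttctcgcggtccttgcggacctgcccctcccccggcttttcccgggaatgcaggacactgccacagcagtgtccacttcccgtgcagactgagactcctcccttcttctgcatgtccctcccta
Apobec3, chr15:79892158-79892457, plus strand: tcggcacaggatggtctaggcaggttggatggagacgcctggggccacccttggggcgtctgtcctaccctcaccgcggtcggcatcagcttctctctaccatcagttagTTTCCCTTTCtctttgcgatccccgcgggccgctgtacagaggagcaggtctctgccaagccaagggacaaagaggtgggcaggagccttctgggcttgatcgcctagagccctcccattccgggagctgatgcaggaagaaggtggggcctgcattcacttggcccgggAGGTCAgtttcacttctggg
Serhl, chr15:83099955-83100254, plus strand: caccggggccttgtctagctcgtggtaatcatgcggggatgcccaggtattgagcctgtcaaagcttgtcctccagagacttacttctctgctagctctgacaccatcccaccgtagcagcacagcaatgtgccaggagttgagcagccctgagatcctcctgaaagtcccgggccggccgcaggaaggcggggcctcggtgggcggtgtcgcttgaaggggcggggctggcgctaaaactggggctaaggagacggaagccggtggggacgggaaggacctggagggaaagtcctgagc

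The Apobec3 promoter held 1 AGGTCA and, on its minus strand, 1 GAAA repeat. The Cmbl and Serhl windows and a second Apobec3 promoter (chr15:79894773-79895072) held no match to any of the 3. Of 32851 promoters of the same length, 16.3% held AGGTCA, 0.0396% its direct repeat and 3.44% the GAAA repeat. A match is a description of these letters, and so is its lack.

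Lists of genes from the same processes are given by their counts, and in the first 3 the only call was the chosen gene itself. Of 10 tested genes of the cytochrome b5 system, Cyb5r3 alone was called in the Ppara-null comparison. Its partner Cyb5a stood at 516 ± 30.3 against 490.1 ± 40.6 CPM (0.08 ± 0.04), and the desaturases Scd2 and Fads1 differed by -0.92 ± 0.30 and -0.39 ± 0.13 (adjusted p = 0.057 and 0.069). The median of the list was -0.09, beside -0.00 over all genes tested. Of 7 tested genes of the mTOR complexes Deptor alone was called; Mapkap1 and Tti1 differed by 0.38 ± 0.17 and -0.20 ± 0.15 (adjusted p = 0.20 and 0.51), and the median was 0.08. Of 4 tested cytidine deaminase genes Apobec3 alone was called, and Dctd and Cda, which act on free nucleotides and nucleosides, differed by -0.46 ± 0.17 and 0.39 ± 0.16 (adjusted p = 0.10 and 0.16). Of 17 tested hydrolase genes, Cmbl and the carboxylesterases Ces2e (0.70 ± 0.17, adjusted p = 0.0061) and Ces2c (0.70 ± 0.22, adjusted p = 0.042) rose and Serhl fell, with a median of 0.18. The share called over all genes was 7.58%. The calls of Cmbl and Serhl follow from their choice, so in this list only those of Ces2e and Ces2c can be set beside that share.

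Of 25 tested PPAR target genes, 5 were lower in Ppara-null libraries and none was higher, with a median of -0.03. Over all tested genes 3.18% were called lower and 4.39% higher. The 3 with the smallest p were Acadvl, Hsd17b4 and Eci2, enzymes of fatty acid oxidation, at -0.63 ± 0.09, -0.35 ± 0.08 and -0.46 ± 0.11 (adjusted p = 2.5e-05, 0.0075 and 0.0087). On the high-fat diet 8 of the 25 were higher and none lower (0.324% of all genes called), and in the Ppard comparison 5 were higher and none lower (0.954% called). None of the 5 chromosome 15 genes was called in either.

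On other chromosomes the called genes with the largest differences and a mean of at least 10 CPM were, beside both pseudogene rows, Rps15a-ps8 on chromosome 4 (76.2 against 1.30 CPM), the defensin gene Defa35 on chromosome 8 (41.9 against 1.29 CPM) and Pcna-ps2 on chromosome 19 (24.5 against 0.723 CPM). Defensins and pseudogenes have near-identical copies, so these rows are uncertain in the same way.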

How the data were processed

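Per the labels, polyadenylated RNA of sorted intestinal stem cells was sequenced by 3′ digital gene expression. The authors deposited 1 table of estimated counts per gene, rounded to whole numbers as the values show, and 1 table of log2(CPM + 1) values. Per the submitters' processing notes they used Salmon 1.1.0, R 4.0.2, edgeR 3.30.2 and mm10; these notes give neither the annotation nor the use of molecular identifiers or strand. Of 54418 identifiers, 54166 were matched to GENCODE M21 (GRCm38).

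Columns name the group and a library number, and libraries were grouped by the labels. The counts were filtered (filterByExpr, minimum count 10 and total 15), scaled by TMM and fitted with 1 coefficient for each of 8 groups by edgeR's quasi-likelihood test (edgeR 4.0.16, R 4.3.3), with Benjamini-Hochberg adjustment over all 5872 tested genes and a threshold of 0.05. CPM use the TMM-scaled library size. The Ppara, Ppard and diet comparisons average over the other factors. The method was tested on counts simulated from its own model. These held no differences between runs, so that test does not show how the fit handles them. Precision is limited by 612672 to 724155 counts per library.

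Alternatives were DESeq2 1.42.0, limma 3.58.1 on the deposited log2 values, RLE scaling, a low filter, a robust prior, a replicate block, pairs of runs, fits of the 2 groups compared, carriers of 1 genotype and leaving out each library. The diet comparison within PparA, the differences between its diet response and those of PparDA and WT, and the carriers of 1 genotype were added after the data were seen. The 5 genes, the gene lists and the markers were chosen with earlier results of these data known. Named genes are the 5 genes, Ppara, the up to 10 largest and up to 10 nearest to Ppara of the other called chromosome 15 genes, the 4 tested genes on each side of Ppara, the 5 largest called differences elsewhere at a mean of at least 10 CPM, the genes with the largest correlation with each of the 5, and those of each list with the smallest p, leaving out predicted genes. Cyb5a, Anxa13, Rrp7a, the parent genes of both pseudogenes and genes named in windows or at the threshold were added after their values were seen. Tables and figures used Python 3.11.15, pandas 2.3.3, numpy 2.4.6 and matplotlib 3.10.9.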

Additional observations from a re-analysis of the deposited data

Results flagged for a closer look

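Deptor gave 3 flagged results. Among the 4 PparDA control libraries, library 15 had 107 CPM and lay far below the other 3, at 153 to 157 CPM. It was the 1 library so far from its group in 40 tests (5 genes in 8 groups). Chance gives such a value in about 1 of 20 groups, so 1 in 40 is no more than chance would give. The response of Deptor to the high-fat diet differed between genotypes by edgeR's test of the difference itself, close to the threshold. The response in PparDA minus that in PparA was -1.62 ± 0.32 on the log2 scale (adjusted p = 0.021), and that in PparA minus that in WT was 1.57 ± 0.34 (adjusted p = 0.042). Both comparisons were chosen after the values were seen and share the PparA libraries. The first was lost without any 1 of 8 libraries and within runs 1 and 3. The second was lost without any 1 of 19 libraries, with the low filter and within each run pair.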

How the results depend on the processing

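Averaged over diets and Ppard genotypes, the Ppara-null differences that chose the 5 genes kept their direction and call in all alternatives run, while single comparisons with WT lost calls within run pairs and in fits of 2 groups, as given above. Counts of called genes moved more. With a replicate block they were 44 for diet, 7 for Ppara by diet, 12 for Ppara by Ppard, 144 for Ppard, 53 and 93 for PparA against WT on the control and high-fat diets, 165 and 128 for PparDA against WT, and 526 for the Ppara-null comparison. Deviations of libraries from their group means correlated within a run at -0.0286 to 0.455, and 31 of 32 libraries were closest to one of their own run. Libraries of a run were thus alike in part. The main fit was set without the block, so differences between runs are part of the spread behind its p-values. The block changed no call of the 5 genes. Under DESeq2 the counts were 42 for diet, 11 for Ppara by Ppard, 106 for Ppard and 73 for PparA on the high-fat diet. The low filter gave 9 for Ppara by Ppard and 31 for Ppard, and the robust prior 5 for Ppara by diet. Fits of the 2 groups compared gave 13 and 18 for PparA on the control and high-fat diets. Within runs 1 and 3 the counts were 73 for the Ppara-null comparison (12 on chromosome 15), 7 for diet, 0 for Ppara by diet, 33 for Ppara by Ppard, 101 for Ppard, 14 and 18 for PparA and 37 and 38 for PparDA. Within runs 2 and 4 they were 3 for diet, 1 for Ppara by diet, 2 for Ppara by Ppard, 5 for Ppard, 65 and 105 for PparA and 57 and 36 for PparDA; both use fewer libraries. With PparA as the only carriers 202 genes were called, 20 on chromosome 15. Leaving out 1 library gave 14 to 46 and 23 to 96 for PparA, 57 to 125 and 57 to 98 for PparDA, 4 to 11 for Ppara by Ppard, 34 to 112 for Ppard, and 97 to 158 for the comparison of run pairs. The cause of these shifts was not tested.

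The log2 differences that changed sign were of comparisons in which the gene was not called, apart from Cyp2d26. Within runs 1 and 3 the sign changed for Cyp2d26 -0.048, Samm50 -0.15, Gtse1 0.14 in the Ppara-null comparison, and for Deptor 0.12, Serhl -0.11 in the Ppard comparison, and for Deptor -0.21 in the diet comparison. The sign also changed there for Apobec3 -0.33, Cyb5r3 -0.00032 in Ppara by diet, and for Cyb5r3 -0.12 in diet in PparA, and for Apobec3 -0.35, Cyb5r3 0.086 in the diet response of PparDA minus PparA. The sign also changed there for Serhl -0.14 in the diet response of PparA minus WT. Within runs 2 and 4 the sign changed for Apobec3 0.33, Cyb5r3 -0.0029 in the Ppard comparison, and for Cmbl 0.11, Serhl 0.15 in the diet comparison, and for Cmbl -0.072, Deptor -0.32, Apobec3 0.011, Serhl -0.49 in Ppara by Ppard. The sign also changed there for Serhl 0.28 in diet in PparA, and for Serhl -0.25 in the diet response of PparDA minus PparA, and for Cyb5r3 -0.073 in the diet response of PparA minus WT. Under limma the sign changed for Deptor 0.0064, Cyb5r3 -0.0071 in the Ppard comparison, and for Deptor -0.019 in the diet comparison, and for Cyb5r3 -0.014 in Ppara by diet. The sign also changed there for Cyb5r3 -0.043 in diet in PparA. Under DESeq2 the sign changed for Serhl -0.0097 in the comparison of run pairs. With PparA as the only carriers the sign changed for Tspo -0.015, Gtse1 0.048 in the Ppara-null comparison. Leaving out 1 library also changed signs. For Ppara by Ppard the range was Apobec3 -0.22 to 0.060. For Ppara by diet the range was Apobec3 -0.021 to 0.26, Cyb5r3 -0.028 to 0.088. For the diet comparison the range was Apobec3 -0.15 to 0.0078, Cmbl -0.095 to 0.041, Deptor -0.019 to 0.084. For diet in PparA the range was Apobec3 -0.43 to 0.026, Cyb5r3 -0.076 to 0.088, Serhl -0.24 to 0.083. For the comparison of run pairs the range was Apobec3 -0.033 to 0.15, Deptor -0.074 to 0.055, Serhl -0.077 to 0.080. For the diet response of PparDA minus PparA the range was Cmbl -0.11 to 0.44, Cyb5r3 -0.18 to 0.025, Serhl -0.0022 to 0.32. For the Ppard comparison the range was Cyb5r3 -0.017 to 0.040, Deptor -0.054 to 0.047, Serhl -0.023 to 0.069. For the diet response of PparA minus WT the range was Cyb5r3 -0.090 to 0.12, Serhl -0.075 to 0.29. For the Ppara-null comparison the range was Gtse1 -0.11 to 0.059.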
